A study of Arabidopsis thaliana with 6 samples.

Results

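The CrRLK1L receptor kinases are the plasma membrane receptor family to which FERONIA belongs. The 10 genes described here were chosen by name from the family members annotated in the expression table, namely *FER*, *THE1*, *HERK1*, *HERK2*, *ERU* (also called *CAP1*), *CVY1* and the tandem genes *MDS1* to *MDS4*, and they are 10 of 27372 genes in the table. RNA-seq was carried out on whole seedlings of *fer-4*, a single T-DNA insertion line of *FER* in the Col-0 background, and of Col-0, with 3 biological replicates of each genotype. All seedlings were grown for 7 days on MS-agar under long days at 154 μmol per square metre per second (the sample labels write mmol) and harvested at ZT3, and no other treatment was given. The comparison of *fer-4* with Col-0 asks which transcripts differ between these genotypes under moderately elevated light. Here it is read for the relatives of *FER* and for the pathway around them. The paper describes *fer-4* seedlings as severely damaged after 7 days at this light, and no libraries from dim light are in the series. The part of this damage in the differences was not tested.

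CrRLK1L proteins carry an extracellular malectin-like region that binds cell wall polysaccharides or RALF peptides, a membrane span and a cytoplasmic kinase. FER is the best studied of them and acts with GPI-anchored LLG proteins as a receptor for RALF peptides, upstream of ROP GTPases and NADPH oxidases. Relatives act in cell elongation (THE1, HERK1, HERK2), in tip growth of root hairs (ERU), in cell shape (CVY1), in growth responses to metal ions (MDS1 to MDS4) and in the pollen tube (ANX and BUPS proteins).

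All 10 genes have 1 coding exon in the RefSeq annotation of TAIR10.1, with coding sequences of 2421 to 2688 bases, and *FER* and *HERK1* have 1 further, noncoding exon. *MDS1* to *MDS4* lie one after another on the forward strand of chromosome 5, from 15608685 to 15622620. Over the 45 pairs of coding sequences, nucleotide identity was 41.4% to 85.5%, with a median of 51.0%. The most alike pairs were *MDS1* with *MDS2* at 85.5% and *MDS3* with *MDS4* at 79.4%. The longest stretch identical in both transcripts was 149 bases for *MDS1* and *MDS2* and 53 bases for *MDS3* and *MDS4*, so reads from these pairs may have been divided between them and their separate levels are uncertain. To show what the family shares, and how little separates *MDS1* from *MDS2*, a 60-base window of the kinase region is given for the genes on which the results turn. It codes for part of the catalytic loop and the beginning of the metal-binding motif that follows it, and capitals mark the 27 bases that are identical in all 10 genes.
FER: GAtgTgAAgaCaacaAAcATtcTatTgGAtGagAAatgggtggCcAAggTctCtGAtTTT
ERU: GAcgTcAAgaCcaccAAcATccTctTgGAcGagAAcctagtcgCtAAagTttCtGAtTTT
MDS1: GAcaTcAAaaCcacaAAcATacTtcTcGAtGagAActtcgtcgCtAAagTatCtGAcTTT
MDS2: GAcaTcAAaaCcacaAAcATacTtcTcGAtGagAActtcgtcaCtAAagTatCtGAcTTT
MDS3: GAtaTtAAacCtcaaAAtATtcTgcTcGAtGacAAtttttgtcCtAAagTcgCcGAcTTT
MDS4: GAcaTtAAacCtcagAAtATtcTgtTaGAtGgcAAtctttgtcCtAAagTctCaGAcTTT

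Among the 6 libraries, 21824 to 22015 genes were above 0, and Pearson's r of log2 values across genes was 0.977 to 0.984 within *fer-4*, 0.985 to 0.989 within Col-0 and 0.907 to 0.925 between the genotypes. Levels are given in FPKM, fragments scaled to transcript length and to the mapped fragments of the library, so that levels of different genes are compared per length. Differences are log2 fold changes of *fer-4* over Col-0 on FPKM plus 0.1, tested with limma over 19839 genes, those averaging 0.5 FPKM or more. The words rose and fell are kept for genes with a Benjamini-Hochberg adjusted p under 0.05. Under this rule 34.0% of all genes tested were called, 18.0% higher and 16.0% lower in *fer-4*.

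Of the 10 family genes, 9 passed the filter on low values, and 3 of these 9 were called. *MDS3* rose and *FER* and *ERU* fell, while *THE1*, *HERK1*, *HERK2*, *CVY1*, *MDS1* and *MDS4* did not pass and *MDS2* was too low to test. This count is close to the 34.0% among all genes tested. The median log2 fold change of the 9 was 0.02, against -0.01 for all genes tested, and without *FER* it was 0.04 over 8 genes. The 3 *fer-4* values lay all above or all below the 3 Col-0 values for 4 of the 9 genes, a pattern found in 51.1% of all genes tested. Without *FER* this held for 3 of 8 (37.5%). By a stricter rule (adjusted p of at most 0.01 and at least a 2-fold change), which took 8.89% of all genes tested (6.36% higher and 2.53% lower in *fer-4*), only *FER* and *ERU* of the family were called, both lower in *fer-4*.

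**Figure D1:**
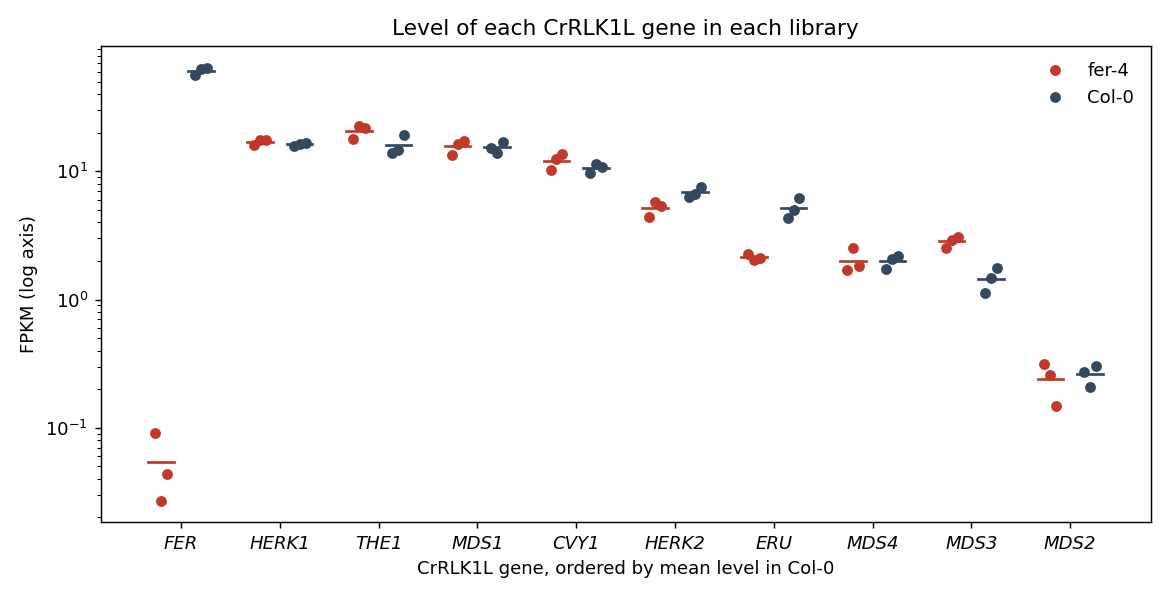
FPKM (log axis) of the 10 CrRLK1L genes in each library, *fer-4* left of Col-0 for each gene; points are libraries and lines are means of 3. *FER* was at 0.0905 FPKM or less in *fer-4* and at 56.5 FPKM or more in Col-0, and *ERU* and *MDS3* were the other genes called.

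*FER* (AT3G51550, chromosome 3 from 19117584 to 19120881 in TAIR10), the RALF receptor, had 0.0905, 0.0270 and 0.0438 FPKM in *fer-4*, against 56.5, 62.6 and 64.6 FPKM in Col-0. The mRNA was thus almost absent from every *fer-4* library, in keeping with the genotype label. Its mean was 0.0538 ± 0.0329 FPKM in *fer-4* and 61.2 ± 4.23 FPKM in Col-0 (SD, n = 3 each), a ratio of Col-0 to *fer-4* of 1138. The log2 fold change was -8.66 (SE 0.18, limma adjusted p = 6.1e-08), and its size depends on the pseudocount, being -5.88 and -10.03 with pseudocounts of 1 and 0.01. Among the 27372 genes, *FER* ranked 21235th, 21791st and 21545th by level in the *fer-4* libraries, against 2774th, 2519th and 2474th in the Col-0 libraries.

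*FER* was the most abundant member in Col-0, and the composition of the family mRNA differed between the genotypes. The 10 genes summed to 68.8, 82.7 and 83.2 FPKM in *fer-4*, against 124.8, 134.6 and 146.7 FPKM in Col-0. *FER* made up 0.0327% to 0.132% of that sum in *fer-4* and 44.0% to 46.5% in Col-0. The other 9 genes summed to 68.7, 82.7 and 83.1 FPKM in *fer-4*, against 68.3, 72.0 and 82.1 FPKM in Col-0, so that the ranges of the remaining family overlapped.

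In *fer-4* the order by mean FPKM was *THE1*, *HERK1*, *MDS1*, *CVY1*, *HERK2*, *MDS3*, *ERU*, *MDS4*, *MDS2* and *FER*. Neighbours in this order whose libraries overlapped were *HERK1* with *MDS1*, *MDS1* with *CVY1*, and *ERU* with *MDS4*. In Col-0 the order was *FER*, *HERK1*, *THE1*, *MDS1*, *CVY1*, *HERK2*, *ERU*, *MDS4*, *MDS3* and *MDS2*, where *HERK1* and *THE1*, *THE1* and *MDS1*, and *MDS4* and *MDS3* overlapped. *MDS3* stood above *ERU* in each of the 3 *fer-4* libraries and below it in each of the 3 Col-0 libraries.

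*THE1* (AT5G54380, chromosome 5 from 22077092 to 22079880), a sensor of cell wall damage and a receptor for RALF34, had 17.9, 22.6 and 22.0 FPKM in *fer-4*, against 13.9, 14.6 and 19.4 FPKM in Col-0. The highest Col-0 library overlapped the mutant range. The log2 fold change was 0.39 (95% interval 0.04 to 0.73, limma adjusted p = 0.0793) and did not pass. It passed when *fer-4* replicate 1 was left out (0.49, limma adjusted p = 0.0395) and when Col-0 replicate 3 was left out (0.54, limma adjusted p = 0.0262).

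*HERK1* (AT3G46290, chromosome 3 from 17012728 to 17016746), which acts with *THE1* and *FER* in cell elongation, had 15.9, 17.6 and 17.7 FPKM in *fer-4*, against 15.8, 16.4 and 16.8 FPKM in Col-0. Its log2 fold change was 0.06 (95% interval -0.14 to 0.26, limma adjusted p = 0.624). *HERK2* (AT1G30570, chromosome 1 from 10828933 to 10831482), also a growth gene of this group, had 4.44, 5.81 and 5.36 FPKM in *fer-4*, against 6.27, 6.72 and 7.56 FPKM in Col-0. All *fer-4* values of *HERK2* lay below all Col-0 values, but the log2 fold change of -0.39 (95% interval -0.71 to -0.08, limma adjusted p = 0.0553) did not pass. It passed without *fer-4* replicate 2 (-0.48, limma adjusted p = 0.0416).

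*CVY1* (AT2G39360, chromosome 2 from 16437472 to 16440154), which controls the shape of trichomes and pavement cells, had 10.2, 12.5 and 13.8 FPKM in *fer-4*, against 9.74, 11.4 and 10.8 FPKM in Col-0. The groups overlapped, and the log2 fold change was 0.18 (95% interval -0.11 to 0.48, limma adjusted p = 0.309). Without *fer-4* replicate 1, its lowest mutant library, it was 0.30 and passed (limma adjusted p = 0.045).

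**Figure D2:**
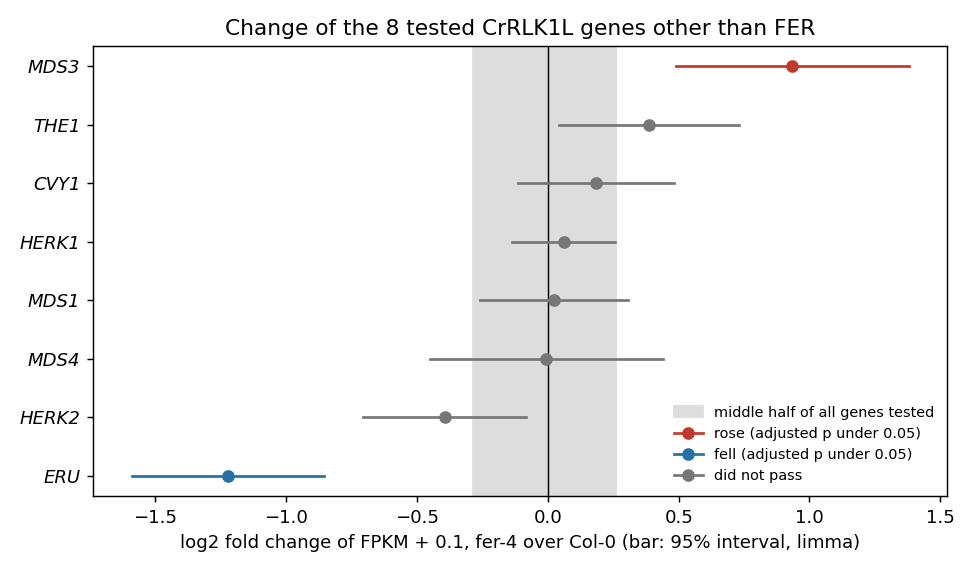
Log2 fold change of FPKM plus 0.1, *fer-4* over Col-0, for the 8 tested family genes other than *FER*; bars are 95% intervals from limma and the grey band is the interquartile range of all genes tested, -0.28 to 0.26. *MDS3* (0.93) and *ERU* (-1.22) lay outside the band with their whole intervals.

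*ERU* (AT5G61350, chromosome 5 from 24667973 to 24670501), the receptor kinase of root hair tip growth, had 2.28, 2.04 and 2.102 FPKM in *fer-4*, against 4.31, 5.03 and 6.20 FPKM in Col-0. Every mutant library was below every Col-0 library, and the mutant values lay within a narrow range. The mean was 2.14 ± 0.127 FPKM in *fer-4* and 5.18 ± 0.957 FPKM in Col-0 (SD, n = 3 each). The log2 fold change was -1.22 (SE 0.16, 95% interval -1.59 to -0.86, limma adjusted p = 7.7e-04), and it passed in each of the 14 alternatives, from -1.35 to -0.97.

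Most tested root hair genes fell, as *ERU* did. Their list was drawn up with earlier results of these data known, so it describes these data and is no independent support. Of 25 genes known from root hairs, 24 were tested, and 20 fell by limma (83.3%, against 16.0% of all genes tested). Among the 20, the call of *RBOHC* was lost in 7 of 14 alternatives (highest limma adjusted p = 0.12). The call of *COBL9* was lost without any of the Col-0 replicates (highest limma adjusted p = 0.107). Of these 24, 0 rose (against 18.0% of all genes tested), and 0 were higher at an unadjusted p under 0.05 by limma. Their median log2 fold change was -1.38, against -0.01 for all genes tested. Their summed level was 98.6 to 149 FPKM in *fer-4* (median 136) and 297 to 352 FPKM in Col-0 (median 341), and no marker of the list was at 0 in all libraries. Changes below that of *ERU* were found for 16 markers and above it for 8. *XTH26*, a xyloglucan endotransglucosylase gene, was at 0.387, 0.159 and 0.174 FPKM in *fer-4*, against 2.47, 3.92 and 3.26 FPKM in Col-0, the lowest log2 fold change of the list at -3.33 (limma adjusted p = 1.3e-04). *EXPA7*, a root hair expansin gene, had 7.70, 6.07 and 6.14 FPKM in *fer-4*, against 15.0, 17.8 and 17.8 FPKM in Col-0 (log2 fold change -1.34, limma adjusted p = 1.4e-04).

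The 4 root hair genes that did not pass were *RHD6*, *RSL4*, *RHS18* and *CSLD3*, of which *RHD6* and *RSL4* code for transcription factors that begin and drive root hair growth. *RSL4* had 3.13, 1.84 and 1.22 FPKM in *fer-4*, against 2.11, 2.51 and 1.75 FPKM in Col-0 (log2 fold change -0.12, limma adjusted p = 0.791). *RSL2*, which codes for a transcription factor of the same family, had 0.464, 0.761 and 0.319 FPKM in *fer-4*, against 1.54, 1.29 and 1.35 FPKM in Col-0, and fell (log2 fold change -1.34, limma adjusted p = 0.0096). In these bulk seedling samples, fewer root hair cells and less RNA per root hair cell cannot be told apart. Of 8 other root markers, all tested, 2 rose (against 18.0% of all genes tested) and 3 fell (against 16.0%). Their median log2 fold change was -0.19, with 5 below 0 and 3 above. Their summed level was 3436 to 3523 FPKM in *fer-4* and 2025 to 2271 FPKM in Col-0. *PYK10* alone had 3312, 3323 and 3421 FPKM in *fer-4*, against 1854, 2096 and 2018 FPKM in Col-0. The higher sum in *fer-4* thus reflects *PYK10* and does not describe the other markers, among which *TIP2-3*, *CASP1* and *NRT2.1* fell. Of 5 shoot markers, 2 fell (against 16.0% of all genes tested). Their summed level was 25906 to 31032 FPKM in *fer-4* and 37081 to 39948 FPKM in Col-0. The part of tissue proportions in the result for *ERU* was not tested.

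**Figure D3:**
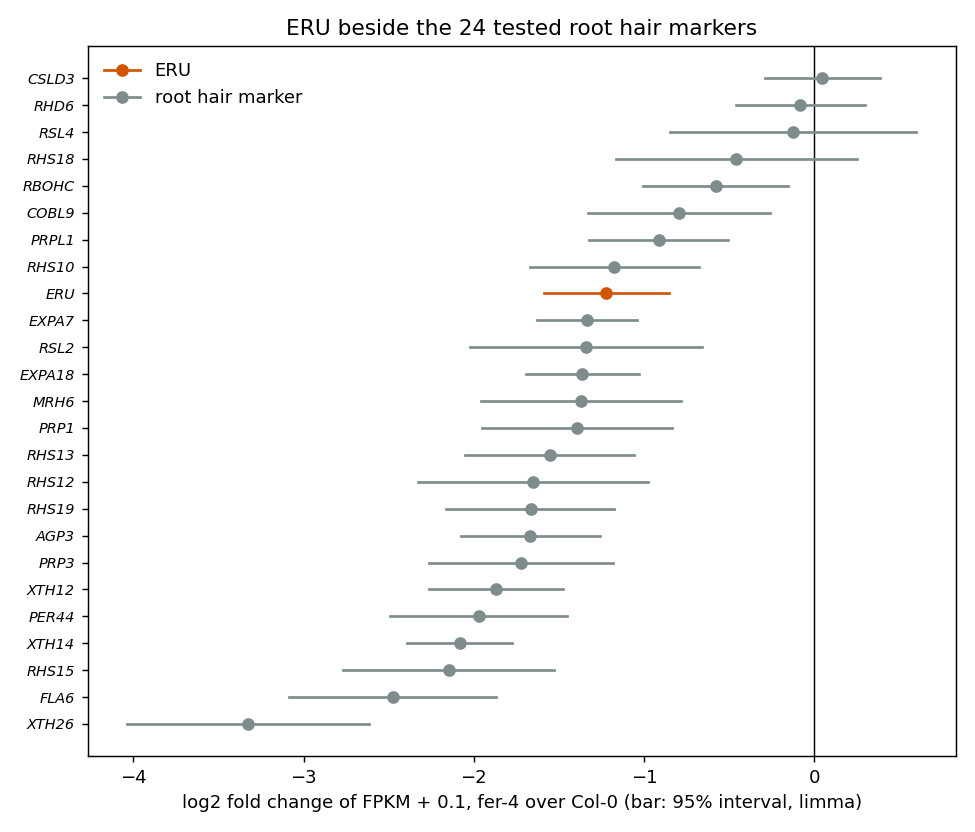
Log2 fold change of FPKM plus 0.1, *fer-4* over Col-0, of *ERU* (orange) and the 24 tested root hair markers (grey), with 95% intervals from limma. *ERU* at -1.22 lay within the range of the markers, which ran down to -3.33 in *XTH26*.

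The 300 bases before the start of *ERU* are printed because most of the root hair markers fell as it did and root hair genes often carry a shared promoter element. They are read from RefSeq TAIR10.1, chr5:24667573-24667872, forward strand, and overlap no annotated gene. Capitals mark a match to the root hair element core on the reverse strand (93 to 102 bases before the start) and a W-box on the forward strand (176 to 181 bases before the start).
ERU promoter: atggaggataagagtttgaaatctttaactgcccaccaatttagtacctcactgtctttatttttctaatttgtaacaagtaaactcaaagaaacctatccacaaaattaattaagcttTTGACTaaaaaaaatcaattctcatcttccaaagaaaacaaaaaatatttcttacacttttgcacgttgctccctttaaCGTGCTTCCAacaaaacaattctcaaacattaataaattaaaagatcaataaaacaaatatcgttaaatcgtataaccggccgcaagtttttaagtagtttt

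The root hair element core was searched on both strands as TGNNN followed directly by TCACG or GCACG, with no overlap with the other motifs in this window. It was found before *ERU* alone among the 10 family genes, before 6 of 25 root hair markers (24.0%) and before 589 of 27443 protein-coding genes (2.15%) in windows of the same length. Whether some markers first became known through this element was not examined, so their share is no independent measure for *ERU*. The W-box (TTGACC or TTGACT), bound by WRKY factors, was found before 6 of the 10 family genes, 16.0% of root hair markers and 32.3% of all genes. The G-box (CACGTG), which MYC2 and other bHLH factors bind, was found before *MDS2* alone in the family and before 7.09% of all genes. A match describes the letters in the window and not a site in use.

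Of the *MDS* genes, known from growth responses to metal ions, *MDS3* was the only one of 3 tested that was called (33.3%, against 34.0% of all genes tested). The difference between its change and that of the others was not tested. *MDS3* (AT5G39020, chromosome 5 from 15616917 to 15619358) had 2.54, 2.93 and 3.06 FPKM in *fer-4*, against 1.13, 1.48 and 1.77 FPKM in Col-0. Every mutant library was above every Col-0 library. The mean was 2.84 ± 0.269 FPKM in *fer-4* and 1.46 ± 0.320 FPKM in Col-0 (SD, n = 3 each), with a log2 fold change of 0.93 (SE 0.19, 95% interval 0.49 to 1.38, limma adjusted p = 0.00731). *MDS3* passed in each of the 14 alternatives, with log2 fold changes of 0.65 to 1.08. Its log2 fold change of 0.93 (ratio of means 1.95) was short of the 2-fold change that the stricter rule asks for.

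*MDS4* (AT5G39030, chromosome 5 from 15620066 to 15622486), the closest relative of *MDS3*, had 1.69, 2.51 and 1.84 FPKM in *fer-4*, against 1.74, 2.09 and 2.18 FPKM in Col-0. The groups overlapped, and the log2 fold change of -0.01 (95% interval -0.45 to 0.44, limma adjusted p = 0.986) leaves room for a difference of up to 0.45 in either direction. *MDS1* (AT5G38990, chromosome 5 from 15608814 to 15611598), the most abundant gene of the cluster, had 13.4, 16.4 and 17.2 FPKM in *fer-4*, against 15.1, 14.0 and 17.0 FPKM in Col-0 (log2 fold change 0.02, 95% interval -0.26 to 0.31, limma adjusted p = 0.906). *MDS2* (AT5G39000, chromosome 5 from 15611860 to 15614481) had 0.313, 0.257 and 0.147 FPKM in *fer-4*, against 0.273, 0.209 and 0.304 FPKM in Col-0. *MDS2* is thus far below *MDS1*, with which it shares the longest identical stretch, and whether reads of the pair were divided between them was not tested. *MDS1* held 74.2% to 77.4% of the summed level of the 4 genes in *fer-4* and 78.8% to 82.8% in Col-0.

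Genes around the cluster and around *FER* are described to set these values in place. Inside the cluster, AT5G39010 and AT5G39024 were listed at 0 in all 6 libraries. Beyond *MDS4*, AT5G39050 had 72.7, 57.4 and 93.4 FPKM in *fer-4*, against 42.6, 48.0 and 35.8 FPKM in Col-0, and rose (log2 fold change 0.80, limma adjusted p = 0.0104). AT5G39090 also rose (log2 fold change 0.47, limma adjusted p = 0.0285), a call lost without any of the Col-0 replicates or *fer-4* replicate 3 and in 2 other alternatives (highest adjusted p = 0.102), whereas *ALS1*, AT5G39080 and AT5G38980 did not pass. *CYP85A1*, a brassinosteroid synthesis gene, was under the filter, at 0.154, 0.284 and 0.0770 FPKM in *fer-4*, against 0.541, 0.494 and 0.604 FPKM in Col-0. AT5G38950 and AT5G38960 were listed at 0 throughout.

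Next to *FER*, 3 consecutive genes on the side of its 3′ end, AT3G51520, AT3G51530 and AT3G51540, were listed at 0 in all 3 *fer-4* libraries, against means of 38.7 ± 0.972, 6.52 ± 0.466 and 2.05 ± 0.471 FPKM in Col-0 (SD, n = 3 each). AT3G51520 and AT3G51530 have the same coordinates in the table. On the other side, AT3G51560 and AT3G51570 were below 0.2 FPKM in both genotypes, and AT3G51580 had 14.6, 16.0 and 15.5 FPKM in *fer-4*, against 12.2, 14.2 and 13.3 FPKM in Col-0 (log2 fold change 0.22, limma adjusted p = 0.113). AT3G51510 averaged 176 ± 35.5 FPKM in *fer-4* and 199 ± 14.3 FPKM in Col-0 (SD, n = 3 each), and *LTP12* was at most 0.133 FPKM in any library. With 1 mutant line, differences in these 6 libraries that go with *FER* and those that go with these 3 neighbours cannot be told apart. The paper reports that a *FER* transgene in *fer-4* restored chlorophyll content and *RD29B* expression, but that line is not among these libraries.

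**Figure D4:**
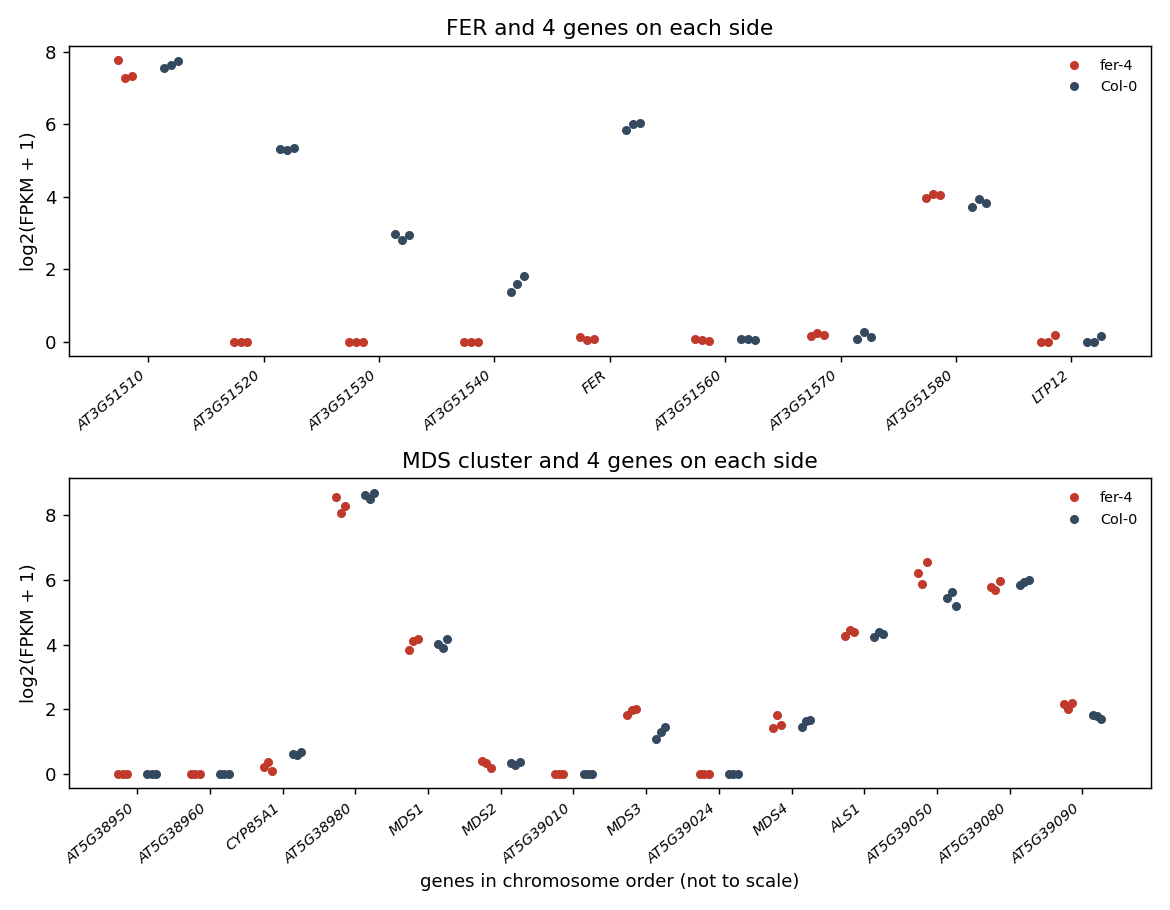
Level, as log2 of FPKM plus 1, of *FER* (top) and the *MDS* cluster (bottom) with the 4 annotated genes of the table on each side, in chromosome order and not to scale; points are libraries, *fer-4* left of Col-0. Next to *FER*, 3 genes were at 0 in *fer-4*, and within the cluster *MDS3* was the gene called.

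The remaining 7 CrRLK1L genes in the table included genes at or near 0 and expressed genes. *ANX2* and *BUPS2*, receptor genes of the pollen tube, were listed at 0 in all libraries, *ANX1* reached at most 0.0524 FPKM, and *BUPS1* was at 0.0930 to 0.224 FPKM in *fer-4* and 0.278 to 0.392 FPKM in Col-0. The 8 pollen markers were all under 1 FPKM, summing to 0.610 to 1.17 FPKM in *fer-4* and 1.01 to 1.55 FPKM in Col-0. AT2G23200 had 4.74, 6.27 and 6.29 FPKM in *fer-4*, against 4.65, 4.67 and 4.57 FPKM in Col-0 (log2 fold change 0.30, limma adjusted p = 0.131), and passed only without *fer-4* replicate 1 among the 14 alternatives (limma adjusted p = 0.00814). AT5G24010 (log2 fold change 0.20, limma adjusted p = 0.238) and AT5G59700 (log2 fold change -0.17, limma adjusted p = 0.284) did not pass either. Thus limma called 0 of the 3 tested, against 34.0% of all genes tested, and 0 at an unadjusted p under 0.05.

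Beyond the family, 208 of 265 genes described as receptor-like kinases in the table were tested, of which 50 rose (24.0%, against 18.0% of all genes tested) and 37 fell (17.8%, against 16.0%), with a median log2 fold change of -0.00. Of the 5 wall-associated kinases, which bind pectin, *WAK1* had 2.56, 3.22 and 2.18 FPKM in *fer-4*, against 1.63, 1.74 and 1.52 FPKM in Col-0, and rose (log2 fold change 0.65, limma adjusted p = 0.0246). That call was lost without *fer-4* replicate 2, without any of the Col-0 replicates and under upper quartile scaling, with adjusted p from 0.0172 to 0.0841 over the alternatives. *WAK2* had 2.30, 3.74 and 2.86 FPKM in *fer-4*, against 4.10, 4.07 and 4.79 FPKM in Col-0 (log2 fold change -0.55, limma adjusted p = 0.0521). It passed without *fer-4* replicate 2 and under 3 other settings (lowest limma adjusted p = 0.015), and *WAK3* to *WAK5* were under the filter.

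The pathway list holds 37 genes set around FER and its relatives. Of these, 34 were tested, 7 rose and 6 fell, with a median log2 fold change of -0.02. The share called, 38.2%, is near the 34.0% among all genes tested. The number that fell was 1 without Col-0 replicate 1 and 3 without Col-0 replicate 2.

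Among the ligands, *RALF34* had 112, 80.0 and 78.7 FPKM in *fer-4*, against 118, 122 and 130 FPKM in Col-0, and fell (log2 fold change -0.47, limma adjusted p = 0.0323). This call was lost without *fer-4* replicate 2 or 3, without any of the Col-0 replicates and without the trend in limma, with adjusted p from 0.001 to 0.106 over the alternatives. *RALF1*, *RALF22*, *RALF23* and *RALF33* did not pass, and *RALF1* had 85.7, 61.3 and 51.2 FPKM in *fer-4*, against 74.0, 68.3 and 73.3 FPKM in Col-0.

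Of the partners at the cell surface, the LLG co-receptors and the LRX proteins that bind RALF peptides in the wall, 7 of 9 were tested. By limma 0 rose (against 18.0% of all genes tested), with 2 higher at an unadjusted p under 0.05, and 2 fell (28.6%, against 16.0%). *LRX1*, an LRX gene of root hairs, had 1.38, 2.39 and 1.97 FPKM in *fer-4*, against 5.45, 6.11 and 5.56 FPKM in Col-0 (log2 fold change -1.56, limma adjusted p = 6.4e-04). *LRX5* had 10.6, 14.4 and 13.1 FPKM in *fer-4*, against 19.3, 17.2 and 18.4 FPKM in Col-0 (log2 fold change -0.53, limma adjusted p = 0.0124, 0.057 without Col-0 replicate 1). *LLG1*, the co-receptor of FER in seedlings, had 120, 89.2 and 105 FPKM in *fer-4*, against 79.7, 83.8 and 89.7 FPKM in Col-0 and did not pass (log2 fold change 0.30, limma adjusted p = 0.0813, 0.0194 without *fer-4* replicate 2). In *LRX4*, *fer-4* replicate 1 stood apart at 22.0 FPKM, against 54.1 and 58.9 FPKM in the other *fer-4* libraries and 50.2 to 56.0 FPKM in Col-0.

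Inside the cell, *RIPK*, a cytoplasmic kinase that FER binds and phosphorylates, had 20.2, 19.4 and 25.7 FPKM in *fer-4*, against 11.3, 11.7 and 11.6 FPKM in Col-0. It rose by a log2 fold change of 0.90 (limma adjusted p = 8.1e-04), in all 14 alternatives. *MRI*, a kinase that acts downstream of CrRLK1L receptors in pollen tubes and root hairs, had 1.77, 1.80 and 1.02 FPKM in *fer-4*, against 2.67, 2.66 and 2.67 FPKM in Col-0, and fell (log2 fold change -0.81, limma adjusted p = 0.0259). *ROPGEF1*, an activator of ROP GTPases, had 35.1, 40.6 and 36.5 FPKM in *fer-4*, against 52.0, 46.3 and 51.1 FPKM in Col-0, and fell (log2 fold change -0.41, limma adjusted p = 0.0094). The calls of *MRI* (adjusted p up to 0.0801, lost without any of the Col-0 replicates) and of *ROPGEF1* (0.0518 without Col-0 replicate 1) were the less stable of these.

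Among the 10 targets and outputs, all tested, 4 rose (against 18.0% of all genes tested) and 1 fell (against 16.0%). *MYC2*, the jasmonate transcription factor that FER phosphorylates and destabilises, had 105, 110 and 111 FPKM in *fer-4*, against 28.3, 28.9 and 30.2 FPKM in Col-0 (log2 fold change 1.90, limma adjusted p = 1.2e-06). *RBOHD*, an NADPH oxidase gene of stress signalling, had 33.6, 45.4 and 55.6 FPKM in *fer-4*, against 14.9, 15.1 and 17.0 FPKM in Col-0 (log2 fold change 1.48, limma adjusted p = 3.9e-04). *RBOHF*, its close relative, had 17.1, 24.1 and 26.3 FPKM in *fer-4*, against 8.55, 8.29 and 8.06 FPKM in Col-0 (log2 fold change 1.40, limma adjusted p = 3.3e-04). All 3 rose in all 14 alternatives with every mutant library above every Col-0 library.

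The fourth, *EBP1*, rose by 0.25 (limma adjusted p = 0.0382), a call lost in 8 of 14 alternatives, including those without any of the Col-0 replicates or *fer-4* replicate 3 (highest adjusted p = 0.226). *ABI2*, a phosphatase of abscisic acid signalling, had 7.90, 7.76 and 7.00 FPKM in *fer-4*, against 13.8, 18.6 and 9.27 FPKM in Col-0, and fell (log2 fold change -0.81, limma adjusted p = 0.0236). The Col-0 values of *ABI2* were spread over 9.33 FPKM, and its call was lost without Col-0 replicate 1 or 2 or *fer-4* replicate 2 or 3 (highest adjusted p = 0.0749).

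Of the other receptors, *MIK2*, a leucine-rich repeat receptor kinase gene that works with *FER* and *THE1* in wall sensing, had 42.2, 60.1 and 91.4 FPKM in *fer-4*, against 22.2, 26.5 and 27.0 FPKM in Col-0. It rose by a log2 fold change of 1.28 (limma adjusted p = 0.0050), in all 14 alternatives, with a wide spread among the mutant libraries. *BAK1*, a co-receptor of many receptor kinases, had 30.9, 33.9 and 34.9 FPKM in *fer-4*, against 24.0, 26.9 and 27.4 FPKM in Col-0, and rose (log2 fold change 0.35, limma adjusted p = 0.0201). That call was lost without Col-0 replicate 1 or 2, without *fer-4* replicate 3 and under both other scalings (highest adjusted p = 0.0958).

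**Figure D5:**
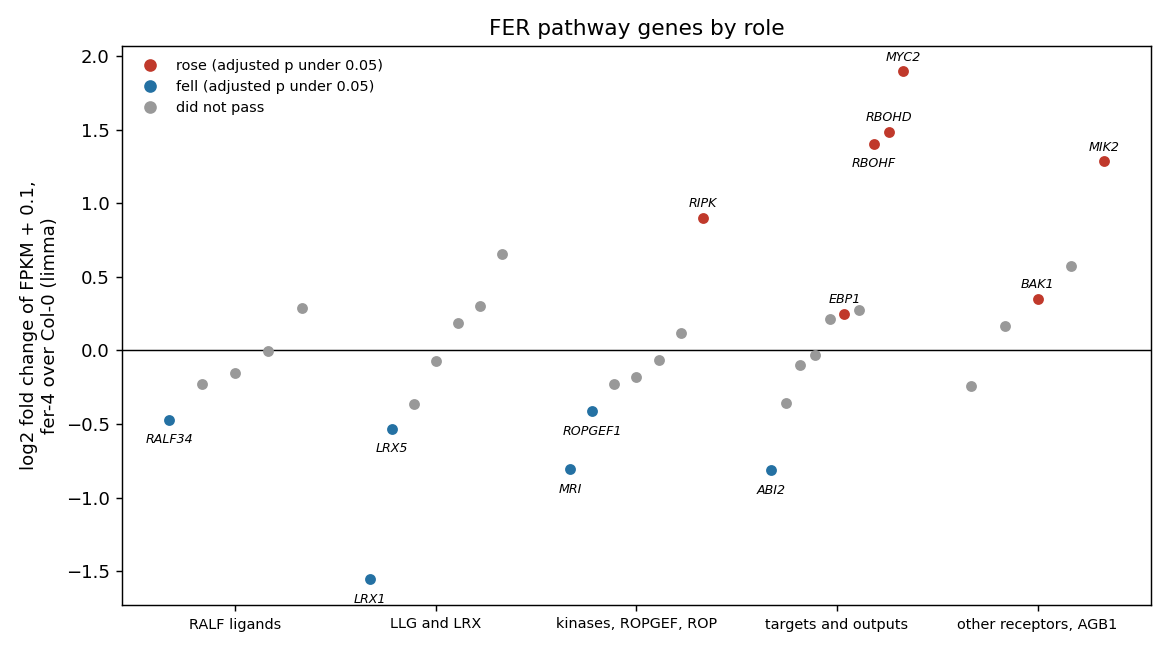
Log2 fold change of FPKM plus 0.1, *fer-4* over Col-0 (limma), of the 34 tested pathway genes around FER and its relatives, grouped by role. Red points rose, blue points fell and grey points did not pass. Of the 34, 7 rose, led by *MYC2* (1.90), and 6 fell, led by *LRX1* (-1.56).

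The genes most like *ERU* and *MDS3* over the 6 samples were found by the Euclidean distance between log2 profiles centred per gene, as a description over 6 libraries that share their genotype difference. For *ERU* they were AT3G06145 (distance 0.185), *EXGT-A1* (AT2G06850, 0.215) and *XTH7* (AT4G37800, 0.224), of which the last 2 code for xyloglucan endotransglucosylases. *XTH7* averaged 123 FPKM in *fer-4* and 265 FPKM in Col-0. For *MDS3* they were AT4G29050 (0.216), a lectin receptor kinase gene, AT2G29670 (0.232) and *NUDT4* (AT1G18300, 0.284). AT4G29050 averaged 1.44 FPKM in *fer-4* and 0.751 FPKM in Col-0, both below the means of *MDS3*, since the centred profiles leave the level of a gene out.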

How the data were processed

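Whole-seedling RNA of *fer-4* and Col-0 gave 3 libraries per genotype, grouped by the genotype label. The deposited table holds the authors' FPKM for each gene and library. It names no unit, and FPKM was inferred from Cufflinks 2.2.1, which the submitters' processing notes name with STAR 2.5, and from the values themselves, which have decimals and sum to 910619 to 1058751 per library. Per the study's methods, reads were trimmed and mapped to TAIR10. The strand setting used in quantification was not given in the sources used here. No counts are in the table, so depth is unknown and no counting interval is given, while a relative depth read from the low values was 0.868 to 1.01 in *fer-4* and 0.949 to 1.09 in Col-0. The authors' own comparison (fold changes, p-values and q-values) was not used.

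log2(FPKM + 0.1) of genes averaging 0.5 FPKM or more was fitted with limma 3.58.1 (R 4.3.3), with an intensity trend, 2-sided, adjusted over all 19839 genes by Benjamini-Hochberg. A permutation of 3 against 3 samples cannot give a p below 0.1. The procedure was also run on data simulated with independent normal noise at the spread that limma had fitted. Such data meet the assumptions of the fit, so the run cannot show whether the calls hold here. Sequences come from RefSeq TAIR10.1 and were aligned with MAFFT 7.526. Starts in the table were raised by 1, because of 7465 genes with the same end in both annotations 3883 then had equal starts and 22 had them before. Python 3.11.15 did the rest.

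The family members and gene lists were chosen with earlier results of these data known. Named were the 10 members, the 7 other family genes, up to 3 genes per pathway list that rose and 3 that fell with the largest change, all wall-associated kinases, 4 neighbours on each side of *FER* and the *MDS* cluster, and the 3 genes most like *ERU* and *MDS3*. *XTH26*, *EXPA7*, *RSL4*, *RSL2*, *RALF1*, *LLG1*, *LRX4*, *EBP1* and the tissue markers are further names, chosen after their values were seen. Alternatives were the pseudocount, the filter, quantile and upper quartile scaling, limma without the trend, a replicate block and leaving out each library.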

Additional observations from a re-analysis of the deposited data

How the results depend on the processing

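The calls of *FER*, *ERU* and *MDS3* held in all 14 alternatives, and *HERK1*, *MDS1* and *MDS4* passed in none. *HERK2* passed under quantile normalization (-0.44, limma adjusted p = 0.0234) and upper quartile scaling (-0.48, limma adjusted p = 0.0343). Leaving out 1 library moved the log2 fold change of *THE1* between 0.30 and 0.54, of *HERK2* between -0.48 and -0.29 and of *CVY1* between 0.090 and 0.30, and the number of family genes called higher between 1 and 3. Without 1 library, 1938 (without Col-0 replicate 1) to 3708 genes were called lower against 3170 with all 6, 2057 without Col-0 replicate 2 and 2057 without Col-0 replicate 3. The pathway genes called lower numbered 1 to 9, and the root hair markers called higher 0 to 1, the 1 being *CSLD3* without *fer-4* replicate 1. Of all genes called, 53.0% were higher in *fer-4*, against 42.2% with quantile normalization and 42.0% with upper quartile scaling, and the median log2 fold change of all genes was -0.01, -0.08 and -0.09 under these scalings. The cause of these shifts was not tested. Without the filter *MDS2* had a log2 fold change of -0.12 (limma adjusted p = 0.766).

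Deviations from the genotype mean correlated at -0.0444, 0.0426 and -0.0660 in same-numbered libraries and at -0.0369 to 0.0730 in the other pairs. With 3 libraries per genotype these values cannot decide whether the numbers pair the samples, which the sources used here do not state. With the replicate block, *THE1* passed (0.39, limma adjusted p = 0.0387) and 2 family genes were called higher. Depth is unknown, so genes below about 0.5 FPKM, such as *MDS2* and the pollen tube receptors, can only be given as levels.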
